A study of Mus musculus with 10 samples.

Results

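The nuclear genome encodes most subunits of the 5 oxidative phosphorylation complexes, and their transcripts were followed in mouse dorsal root ganglia (DRG) 24 h after sciatic nerve injury. Members were the genes with a protein-coding transcript whose symbol matched the names of complex I subunits (Ndufa, Ndufb, Ndufc, Ndufs or Ndufv with a number), complex II (Sdha to Sdhd), complex III (Uqcr), complex IV (Cox4 to Cox8 with a letter a to c) or complex V (Atp5). This gave 86 of 54309 genes, or 86 of 21669 genes with a protein-coding transcript, of which 39 belonged to complex I, 4 to complex II, 8 to complex III, 17 to complex IV and 18 to complex V. The name rule left out 5 known subunits or carriers (Cox4i1, Cox4i2, Cyc1, Ndufab1 and Cycs) and 16 matching symbols without a protein-coding transcript. All mice were C57BL6/J and 6 to 8 weeks old, and the left L4 and L5 DRG of 2 mice were pooled for each poly-A library. Female sham and male sham held 2 libraries each (nerve exposed and left intact), and female axotomy and male axotomy held 3 libraries each (nerve cut at mid-thigh). The comparisons ask how axotomy changed the subunit transcripts in each sex, and whether the sexes differed.

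Complexes I to IV pass electrons from NADH and succinate to oxygen and, apart from complex II, pump protons across the inner mitochondrial membrane. Complex V, the ATP synthase, lets the protons flow back and makes ATP. Mitochondrial DNA supplies the hydrophobic core of every complex except complex II, and the nucleus supplies the rest, so both genomes have to be expressed for a working chain. Sensory neurons of the DRG send mitochondria down long axons, and glia, macrophages and vessels of the ganglion carry their own chains.

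Estimated read counts per library ran from 55258476 to 90111671. The members together held 0.881 to 0.926% of the counts in sham and 0.949 to 1.19% after axotomy. CPM are counts scaled to library size and corrected for library composition and for transcript length differences between libraries, not between genes. The tissue label was borne out by its markers. The 17 sensory neuron markers summed to 20450 to 24100 CPM in sham and 15400 to 18990 CPM after axotomy. Of these 17, 7 were downregulated in females and 12 in males, and 1 was upregulated in males. In males, 11 of 11 macrophage markers, 9 of 9 myelinating Schwann cell markers, 9 of 10 fibroblast markers, 6 of 7 erythrocyte markers and 5 of 10 satellite glia markers were upregulated. In females the same lists had 1, 0, 0, 0 and 1 upregulated and 1, 0, 2, 0 and 3 downregulated. In sham, the log2FC of males against females was negative for 11, 9, 9, 7 and 5 markers of these lists. None of these sham differences was called by edgeR or DESeq2 (3, 1, 1, 0 and 0 markers at an unadjusted p under 0.05). Smooth muscle and pericyte markers had 2 upregulated in each sex, with 1 downregulated in females and 4 in males, of 10. Of 8 endothelial markers, 3 were downregulated in males and none was called by edgeR in females (2 at an unadjusted p under 0.05, 1 by DESeq2). Among all genes tested, 10.5% were upregulated and 9.7% downregulated in females, and 22.6% and 19.4% in males. In whole ganglia, fewer cells of a type and less RNA per cell cannot be told apart, and the part of these markers in the changes below was not tested. The libraries also differed in estimated fragment length, taken as the median gap between length and effective length of transcripts over 5000 bases. Effective length also holds the sequence and GC bias correction, so this estimate is not a measured fragment length. It was 241 and 256 bases in female sham, 255 and 239 in male sham, 223, 233 and 248 in female axotomy and 246, 252 and 217 in male axotomy. The male axotomy replicate 3 library had the shortest estimated fragments and the largest share of member counts.

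In males axotomy raised many subunit transcripts by small amounts. In the fit over all 10 libraries, the female share called was close to that of all genes. With each sex fitted alone, 35 members were called up in females and 33 in males. The shares of all genes called in those separate fits are not given here, so these counts have no background. Of the 86 members, 81 passed the filter on low counts. In females, 9 of 81 were upregulated (11.1%, beside 10.5% of all 20836 genes tested) and 0 were downregulated (9.7% of all genes). In males, 43 of 81 were upregulated (53.1%, beside 22.6% of all genes) and 2 were downregulated (19.4% of all genes). A gene was called at padj below 0.1 with edgeR's quasi-likelihood test. For the 0 downregulated female members, DESeq2 called 1 (Sdha), and 25 members had an unadjusted p under 0.05 in either direction. The median log2FC of the 81 members was 0.191 in females and 0.252 in males, beside -0.001 and 0.037 for all genes. Every axotomy library lay above every sham library for 53 members in females (26.2% of all genes) and for 50 members in males (30.4% of all genes).

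Most female calls were also made in males, among the members as among all genes. Of the 9 members upregulated in females, 8 were upregulated in males as well (88.9% of the female and 18.6% of the male calls, beside 76.8% and 35.8% for all genes), namely Atp5l, Atp5md, Cox7c, Ndufa1, Ndufa7, Ndufb9, Ndufs6 and Sdhb. The remaining female call was Cox6a2. Each of the 9 female calls was lost in 4 to 12 of 19 alternatives. Of the 35 members called in males alone, 33 had a positive log2FC in females, beside 68 of all 81 tested members. The counts moved with the model and the libraries used, and the share of all genes called under each alternative is not given here. With fragment length as a covariate, an alternative chosen after seeing the data, 1 member (Atp5md) stayed upregulated in females and 41 in males, 41 of them among the 43. Leaving out single libraries gave 0 to 30 upregulated members in females, with 0 without female sham replicate 1, without female sham replicate 2 or without female axotomy replicate 2, 22 without female axotomy replicate 3, and 30 without male axotomy replicate 2 or without male axotomy replicate 3. In males the same exercise gave 16 (without male sham replicate 1), 26 (without male sham replicate 2) and 34 to 51 otherwise.

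**Figure D1:**
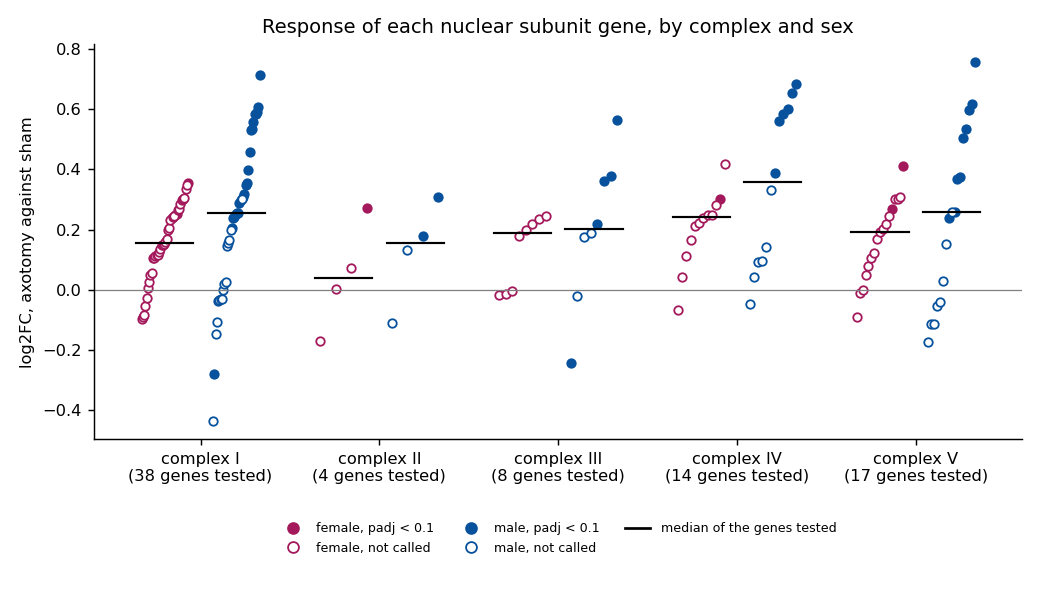
Each point is 1 tested subunit gene, placed by its log2FC of axotomy against sham (vertical axis) within its complex (horizontal axis), with females and males side by side, filled where padj was below 0.1, and a line at the median of the genes tested. Most male points lie above 0, with the highest near 0.76 (Atp5md), while female points reach 0.42 (Cox6c); the muscle isoforms Cox6a2 and Cox8b, at 4.30 and 2.27 in females, lie off the axis and are left out of the points.

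**Figure D2:**
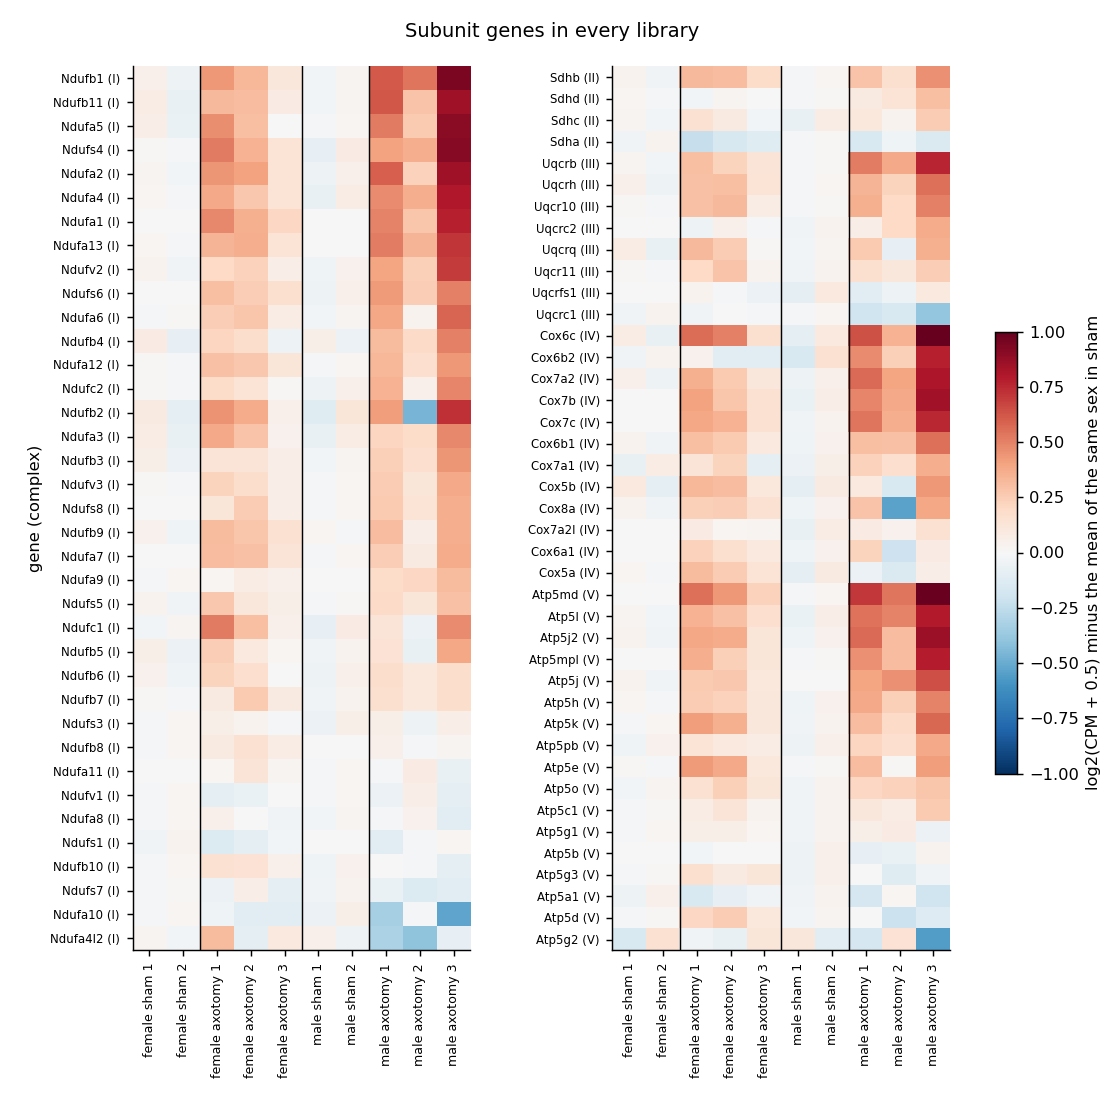
Rows are tested subunit genes (Cox6a2, Cox8b and a gene not reported here left out), columns are the 10 libraries, and colour gives log2(CPM + 0.5) minus the mean of the same sex in sham. Rows are ordered by male log2FC within each complex; most rows are reddest in male axotomy replicate 3, and Ndufb2 and Cox8a stand out in blue in male axotomy replicate 2.

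Complex I, the NADH dehydrogenase, has a core of catalytic subunits shared with bacteria and a shell of accessory subunits. Of 38 tested members, 4 were upregulated in females (10.5%) and 22 in males (57.9%), and 1 was downregulated in males. Among all genes, 10.5% were upregulated in females and 22.6% in males. The 7 nuclear core subunits had 0 calls in females (0 at an unadjusted p under 0.05, 0 by DESeq2). In males 2 of the 7 were upregulated (28.6%), and the medians were -0.027 in females and -0.029 in males. The 31 tested accessory subunits had 4 upregulated in females (12.9%, close to all genes) and 20 in males (64.5%), with medians of 0.205 and 0.289. Ndufs1, the large iron-sulfur subunit of the arm that takes electrons from NADH, measured 161 and 168 CPM in the female sham libraries and 149, 154 and 162 CPM in the female axotomy libraries, and 159.5 and 161 CPM in the male sham libraries and 148, 159 and 162 CPM in the male axotomy libraries. The groups overlapped in both sexes (log2FC -0.08, SE 0.07, padj = 0.454 in females and log2FC -0.03, SE 0.07, padj = 0.735 in males). Ndufv1, which holds the flavin that accepts those electrons, had log2FC -0.05 in females and -0.03 in males (padj = 0.657 and 0.784). The 2 core subunits that rose in males were Ndufv2 (log2FC 0.46) and Ndufs8 (log2FC 0.26), which carry iron-sulfur clusters.

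Among the accessory subunits, Ndufb1, a small single-span membrane protein, changed most in males. It measured 52.9 and 49.1 CPM in the female sham libraries and 68.9, 64.4 and 55.1 CPM in the female axotomy libraries, and 46.3 and 48.2 CPM in the male sham libraries and 72.6, 68.8 and 91.2 CPM in the male axotomy libraries. The male groups stood apart by a wide margin (log2FC 0.71, SE 0.13, padj = 0.00262), and the female groups stood apart by less (log2FC 0.30, SE 0.12, padj = 0.136). Ndufa1, an X-linked membrane subunit, measured 45.8 and 46 CPM in the female sham libraries and 64.1, 59 and 53.1 CPM in the female axotomy libraries, and 45.3 and 45 CPM in the male sham libraries and 63.8, 54.7 and 77.8 CPM in the male axotomy libraries. All axotomy libraries were above all sham libraries in both sexes (log2FC 0.36, padj = 0.0939 in females and log2FC 0.54, padj = 0.01 in males). The other X-linked members, Ndufb11 and the complex IV gene Cox7b, were upregulated in males (log2FC 0.61 and 0.58), with 0.24 and 0.28 in females that were not called. Ndufs4, an accessory subunit whose loss causes Leigh syndrome, rose in males (log2FC 0.58, padj = 0.0188) and did not pass in females (log2FC 0.35, padj = 0.178). Ndufs6, Ndufa7 and Ndufb9, accessory subunits of the matrix and membrane arms, rose in both sexes, by 0.24, 0.25 and 0.25 in females and 0.40, 0.24 and 0.25 in males on the log2 scale. Ndufb4 rose in males as well (log2FC 0.35, padj = 0.038), but it shares sequence with the processed pseudogene Ndufb4c, and reads could be split between them. The mean level was 59.6 TPM for Ndufb4 and 433 TPM for Ndufb4c. Ndufs5 had the smallest called rise of this complex in males (log2FC 0.20, padj = 0.0713), and the call was lost in 10 of 19 alternatives, DESeq2 among them.

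One accessory subunit went the other way. Ndufa10, a matrix-facing protein with a nucleoside kinase fold, measured 146 and 159 CPM in the male sham libraries and 120.4, 150.3 and 105 CPM in the male axotomy libraries. It was downregulated in males (log2FC -0.28, SE 0.12, padj = 0.0963), but the groups overlapped. The call was lost in 13 of 19 alternatives, with fragment length as a covariate among them, although the log2FC stayed negative in all 19 (-0.43 to -0.17, the largest fall without male axotomy replicate 2). In females it measured 138 and 141 CPM in the female sham libraries and 135, 129 and 129 CPM in the female axotomy libraries with all axotomy libraries below sham, and was not called (log2FC -0.09). Ndufa4, placed with complex I by its name, had the highest level there, at a mean of 1675 TPM (a level per transcript length). It rose in males by 0.56 on the log2 scale (padj = 0.00731). The protein is found with complex IV. Its counts are part of the complex I values here, with means of 247.6 CPM in male sham and 364.4 CPM in male axotomy. Its paralog Ndufa4l2, known as a hypoxia-induced gene, had the lowest level of the tested members of complex I, at 1.95 TPM, and made up 0.0846 to 0.194% of the pair. Ndufa4l2 had log2FC 0.20 in females and -0.44 in males, neither called, with all male axotomy libraries below both male sham libraries. Split by arm, the 10 subunits of the NADH-oxidizing N module had 2 upregulated in females and 8 in males. The 5 subunits of the ubiquinone-binding Q module had 0 in females (0 at an unadjusted p under 0.05, 0 by DESeq2) and 2 in males. The shares of all genes upregulated were 10.5% in females and 22.6% in males. No test compared the N and Q modules, and both lists are too short for a contrast between them.

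Complex II, succinate dehydrogenase, also works in the citric acid cycle and has all 4 subunits in the nucleus. Sdha, the flavoprotein that binds succinate, measured 303 and 317 CPM in the female sham libraries and 264, 277 and 285 CPM in the female axotomy libraries, and 300.4 and 307 CPM in the male sham libraries and 273, 295 and 275 CPM in the male axotomy libraries. Every axotomy library lay below every sham library in both sexes, and neither difference was called (log2FC -0.17, SE 0.07, padj = 0.131 in females and log2FC -0.11, SE 0.07, padj = 0.247 in males). Sdhb, the iron-sulfur subunit that takes the electrons from Sdha, moved up. It measured 109 and 104 CPM in the female sham libraries and 133, 131 and 120.4 CPM in the female axotomy libraries, and 106 and 109 CPM in the male sham libraries and 131, 121 and 148 CPM in the male axotomy libraries. Again the groups did not overlap in either sex, and both rises were called (log2FC 0.27, SE 0.09, padj = 0.0718 in females and log2FC 0.31, SE 0.09, padj = 0.0232 in males). Of the 2 membrane anchors, Sdhd was called up in males (log2FC 0.18, padj = 0.0826), a call lost in 14 of 19 alternatives, DESeq2 among them, and was close to 0 in females, and Sdhc passed in neither sex (log2FC 0.07 and 0.13). Sdhb was the most abundant of the 4 at a mean of 188 TPM, close to Sdha at 184 TPM, and Sdhc the least at 71.4 TPM.

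Complex III, the cytochrome bc1 complex, had 8 tested members. In females 0 were called (2 at an unadjusted p under 0.05, 1 by DESeq2). In males 4 were upregulated (50.0%, beside 22.6% of all genes) and 1 was downregulated. Uqcrc1, the large core protein that faces the matrix, measured 192 and 197 CPM in the male sham libraries and 169, 175 and 148 CPM in the male axotomy libraries. All 3 male axotomy libraries lay below both sham libraries (log2FC -0.24, SE 0.08, padj = 0.0338). In females Uqcrc1 measured 178 and 188 CPM in the female sham libraries and 178, 184 and 182 CPM in the female axotomy libraries, with overlapping groups (log2FC -0.02, padj = 0.92). Its partner Uqcrc2 was called up in males (log2FC 0.22, padj = 0.0762), a call lost in 11 of 19 alternatives, and was close to 0 in females. Uqcrb, a small subunit near the quinone site, had the largest rise of the complex in males. It measured 58.1 and 55.7 CPM in the female sham libraries and 70.2, 66.3 and 62.4 CPM in the female axotomy libraries, and 53.3 and 54.1 CPM in the male sham libraries and 76.8, 70.2 and 91.5 CPM in the male axotomy libraries. The groups stood apart in both sexes, and the male rise was called (log2FC 0.57, SE 0.10, padj = 0.00304) while the female one was not (log2FC 0.22, SE 0.10, padj = 0.182). Uqcrh, the acidic hinge protein that docks cytochrome c, was the most abundant member at 788 TPM and rose in males (log2FC 0.38, padj = 0.0135). Uqcrfs1, the catalytic Rieske iron-sulfur protein, was the least abundant at 146 TPM and had log2FC -0.01 and -0.02, neither called.

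Complex IV, cytochrome c oxidase, has its catalytic centres in mitochondrially encoded subunits, and the nuclear ones surround them. Of 14 tested members, 2 were upregulated in females (14.3%) and 6 in males (42.9%), beside 10.5% and 22.6% of all genes. Cox6c, the most abundant at 1243 TPM, measured 150.3 and 136 CPM in the female sham libraries and 211, 203 and 159 CPM in the female axotomy libraries, and 131 and 150.0 CPM in the male sham libraries and 218, 178 and 280.2 CPM in the male axotomy libraries. The female groups did not overlap, yet the spread between libraries left the difference uncalled (log2FC 0.42, SE 0.17, padj = 0.143); the male rise was called (log2FC 0.68, SE 0.18, padj = 0.0141). Cox7c, a small subunit at the rim of the complex, measured 124 and 122 CPM in the female sham libraries and 161, 157 and 137 CPM in the female axotomy libraries, and 119.7 and 126 CPM in the male sham libraries and 178, 158 and 208 CPM in the male axotomy libraries. It was called in both sexes (log2FC 0.30, SE 0.11, padj = 0.0977 in females and log2FC 0.56, SE 0.11, padj = 0.00436 in males). Cox5a, which faces the matrix, measured 96.3 and 93.2 CPM in the female sham libraries and 118, 113 and 104 CPM in the female axotomy libraries, and 92.6 and 106 CPM in the male sham libraries and 94.7, 89.3 and 104 CPM in the male axotomy libraries. Here the female axotomy libraries were above sham with padj at the threshold but not below it (log2FC 0.24, SE 0.09, padj = 0.1), and the male groups overlapped (log2FC -0.05, SE 0.09, padj = 0.709). Cox5b, the zinc-binding subunit, was called in neither sex (log2FC 0.25 and 0.14). In Cox8a, male axotomy replicate 2 stood far below the other libraries, at 93.3 CPM beside 165 and 177 in the other male axotomy libraries, and the gene was not called (log2FC 0.10). Without that library Cox8a was called in males (log2FC 0.33, padj = 0.00296 by edgeR). The complex I gene Ndufb2 had the same library low, at 41.6 CPM beside 77.1 and 95.9.

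Several complex IV subunits come as tissue isoforms, and the ganglia used the ubiquitous forms almost entirely. Cox6a2 and Cox8b, the heart and skeletal muscle forms, held 0.0155 to 1.06% and 0.042 to 1.12% of the TPM of their pairs, and both had their highest share in female axotomy replicate 2. In estimated counts, Cox6a2 was at 4 and 2 in female sham, 11, 142 and 9 in female axotomy, 11 and 6 in male sham and 12, 14 and 15 in male axotomy. Cox6a2 was called in females (log2FC 4.30, SE 1.39, padj = 0.0721), and 1 library carries that call: without female axotomy replicate 2 its log2FC was 1.77 and it was not called, and the call was lost in 10 of 19 alternatives in all. Cox8b was at 9 and 2, then 9, 58 and 3 counts in females, and was not called (log2FC 2.27, padj = 0.247). The 18 skeletal muscle markers summed to 284.6 CPM in the same library and to 65.4 to 113 CPM in the other 9, and 16 of the 18 were highest there. The myoglobin gene Mb, for one, was at 16.7 CPM there and at 0.0471 to 1.18 CPM elsewhere. Of the 18, edgeR called 1 upregulated in each sex (5.56%, beside 10.5% of all genes in females and 22.6% in males). DESeq2 called 6 of the 18 in females and 1 in males. Their median log2FC was 3.449 in females and 0.313 in males. The part of muscle RNA in the Cox6a2 difference was not tested. Brown adipocyte markers stayed at 47.6 to 55.3 CPM in sum and adipocyte markers at 1.64 to 8.49 CPM, and Ucp1, which defines brown adipocytes, was at or below 0.203 CPM in every library. Of 6 tested brown adipocyte markers 1 was upregulated in females, and 2 were upregulated and 1 downregulated in males; of 6 adipocyte markers 1 was upregulated in males and none was called by edgeR in females (0 at an unadjusted p under 0.05, 0 by DESeq2). Cox7a1, the other muscle form, held 1.44 to 2.15% of the Cox7a pair and was not called in either sex (log2FC 0.11 and 0.33), whereas its ubiquitous partner Cox7a2 rose in males (log2FC 0.60, padj = 0.00412). Cox6b2, known from testis, held 0.893 to 1.35% of its pair and rose in males (log2FC 0.65, SE 0.22, padj = 0.0448) at a level of 1.16 and 1.54 CPM in sham and 2.05, 1.67 and 2.66 CPM after axotomy, while the ubiquitous Cox6b1 rose by 0.39 (padj = 0.0116). Cox7a2l, known as a factor in supercomplexes of complexes III and IV, was not called (log2FC 0.04 and 0.09). Cox6a1 was not called either (log2FC 0.17 and 0.04). Of the untested testis forms, Cox8c had 0 counts in all libraries, which allows up to 3 counts or 0.0543 CPM in the smallest library, and Cox7b2 had 2 to 6 counts per library; such limits cover counting error only. The other untested members were Ndufb11b, Cox5b-ps and a second gene listed as Atp5o, at 0 to 3 counts per library.

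**Figure D3:**
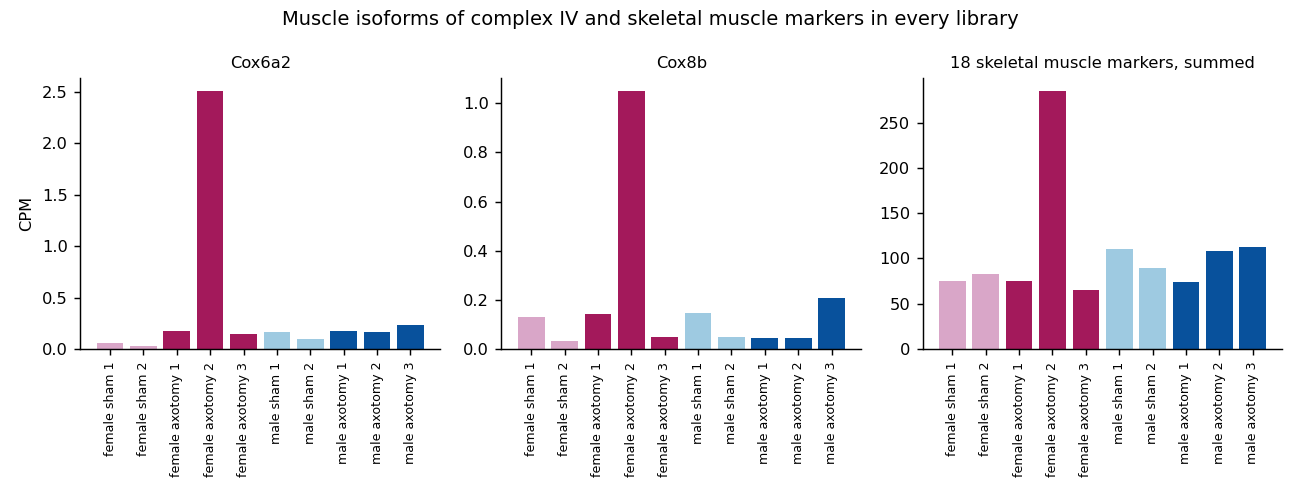
Bars give the CPM of Cox6a2, Cox8b and the sum of 18 skeletal muscle markers (vertical axes, each from 0) in each of the 10 libraries. Female axotomy replicate 2 is the tallest bar in every panel, at 2.51 CPM, 1.05 CPM and 284.6 CPM.

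In complex V, the calls in males all fell on subunits outside the catalytic head and the rotor ring. The catalytic head is built from the alpha, beta, gamma, delta and epsilon subunits (Atp5a1, Atp5b, Atp5c1, Atp5d and Atp5e), the rotor ring from subunit c (made from Atp5g1, Atp5g2 and Atp5g3), and the stator and membrane base from the remaining subunits. The 5 head subunits and the 3 c genes had 0 calls in either sex with edgeR. At an unadjusted p under 0.05, 2 head subunits and 0 c genes differed in females and 0 in males, and DESeq2 called 1 head subunit in females and 0 in males. All 9 tested stator and base subunits were upregulated in males (beside 22.6% of all genes) and 2 of them in females (22.2%, beside 10.5%). Their median log2FC was 0.245 in females and 0.504 in males, beside 0.079 and -0.04 for the head and 0.048 and -0.053 for the c genes, and no test compared these groups of subunits. Atp5e, the epsilon subunit of the head, had log2FC 0.31 in females and 0.26 in males, with all axotomy libraries above sham in both sexes (padj = 0.119 and 0.127, and DESeq2 called it in females). Its male log2FC was close to that of the called Atp5pb (0.26) and Atp5o (0.24). Atp5b, the beta subunit that makes ATP, measured 1021 and 1026 CPM in the female sham libraries and 1002, 1025 and 1020 CPM in the female axotomy libraries, and 1010 and 1078 CPM in the male sham libraries and 985, 995 and 1068 CPM in the male axotomy libraries. The groups overlapped in both sexes (log2FC -0.01 and -0.04). Atp5a1, the alpha subunit, had log2FC -0.09 in females and -0.11 in males with overlapping groups, and Atp5c1, the gamma subunit that turns inside the head, had 0.08 and 0.15. Atp5d, the delta subunit, was called in neither sex (log2FC 0.19 and -0.11).

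Among the base subunits, Atp5md and Atp5l rose most in males. Atp5md, a short membrane subunit that links neighbouring ATP synthases, measured 73.7 and 73.5 CPM in the female sham libraries and 108, 99.3 and 86.5 CPM in the female axotomy libraries, and 68.5 and 70.3 CPM in the male sham libraries and 114, 100.5 and 138 CPM in the male axotomy libraries. All axotomy libraries were above all sham libraries, with a fitted rise of 1.33-fold in females (log2FC 0.41, SE 0.13, padj = 0.0556) and 1.69-fold in males (log2FC 0.76, SE 0.13, padj = 0.00217). Atp5l, subunit g of the membrane base, measured 119 and 115 CPM in the female sham libraries and 149, 143 and 131 CPM in the female axotomy libraries, and 107 and 118 CPM in the male sham libraries and 164, 158 and 194 CPM in the male axotomy libraries. It was called in both sexes (log2FC 0.27, SE 0.10, padj = 0.0952 in females and log2FC 0.62, SE 0.10, padj = 0.00186 in males). Atp5mpl, another small membrane subunit and the most abundant of the complex at 1077 TPM, rose in males (log2FC 0.53, padj = 0.00843) and did not pass in females (log2FC 0.25). The 4 stator subunits Atp5o, Atp5pb, Atp5h and Atp5j rose in males by 0.24, 0.26, 0.38 and 0.50 on the log2 scale. Subunit c came mainly from Atp5g3 (56.6 to 61.8% of the TPM of the c genes) and Atp5g1 (35.1 to 39.0%), with Atp5g2 at 2.76 to 4.49%, and none of the 3 was called (log2FC -0.05, 0.03 and -0.17 in males, 0.12 and 0.05 in females, where Atp5g2 was close to 0). The inhibitory factor Atpif1, which blocks ATP hydrolysis by the head and is no member, measured 154 and 144 CPM in the female sham libraries and 194, 189.5 and 164 CPM in the female axotomy libraries, and 142 and 148 CPM in the male sham libraries and 208, 187 and 243 CPM in the male axotomy libraries. It rose in males (log2FC 0.55, SE 0.11, padj = 0.00507), and the female difference was not called (log2FC 0.30, SE 0.11, padj = 0.108).

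The promoters of these genes are known targets of the nuclear respiratory factors NRF1 and GABPA (an ETS factor), of YY1 and of the estrogen-related receptor ERRA. Promoter windows of 250 bases before to 50 bases after the start (RefSeq, GRCm38.p6) were at hand for 68 of the 81 tested members and for 27025 symbols in all. The letters CGCATGCG (NRF1) stood in 9 of 68 members' promoters (13.2%, beside 2.07% of all symbols), CCGGAAG (ETS) in 17 (25%, beside 9.93%), AANATGGC (YY1) in 17 (25%, beside 6.96%) and TCAAGGTCA (ERRA) in 2 (2.94%, beside 0.466%), counting both strands. Among the 37 matched members that rose in males the counts were 3, 10, 11 and 1, and among the 29 that were not called they were 5, 7, 6 and 1. These matches are descriptions of letters and were compared by no test. The windows of 3 members are shown as examples: Atp5md with the largest male rise, Atp5l with a called rise in both sexes and the most matches of these 3, and Uqcrc1, one of the 2 members that fell in males. Capitals mark the matches, on either strand, so that an ETS match can read CTTCCGG.
Atp5md chr19:47090598-47090897 (- strand): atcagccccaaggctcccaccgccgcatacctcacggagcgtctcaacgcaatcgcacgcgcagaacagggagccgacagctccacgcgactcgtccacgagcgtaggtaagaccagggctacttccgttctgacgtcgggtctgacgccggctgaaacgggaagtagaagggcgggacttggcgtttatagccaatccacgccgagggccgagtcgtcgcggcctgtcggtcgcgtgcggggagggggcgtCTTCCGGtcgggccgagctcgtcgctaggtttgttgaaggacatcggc
Atp5l chr9:44920693-44920992 (- strand): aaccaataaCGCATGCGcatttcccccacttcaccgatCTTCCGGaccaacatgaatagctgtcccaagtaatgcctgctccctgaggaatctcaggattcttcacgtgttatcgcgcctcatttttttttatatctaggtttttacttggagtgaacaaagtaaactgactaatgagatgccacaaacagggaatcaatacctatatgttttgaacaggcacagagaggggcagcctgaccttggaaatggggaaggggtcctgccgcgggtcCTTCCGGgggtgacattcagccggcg
Uqcrc1 chr9:108936398-108936697 (+ strand): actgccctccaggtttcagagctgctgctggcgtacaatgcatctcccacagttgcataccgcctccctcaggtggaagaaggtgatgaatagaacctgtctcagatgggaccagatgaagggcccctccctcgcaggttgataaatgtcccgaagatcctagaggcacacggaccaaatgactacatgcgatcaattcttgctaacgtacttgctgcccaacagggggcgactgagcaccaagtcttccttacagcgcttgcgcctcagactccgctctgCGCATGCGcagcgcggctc
The Atp5md window holds 1 ETS match close to the start, the Atp5l window holds 1 NRF1 match and 2 ETS matches, and the Uqcrc1 window holds 1 NRF1 match close to the start. No capitals in a stretch says only that these letters are not in that window.

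The factors themselves did not move together. Of 15 biogenesis regulators, 1 was upregulated and 2 were downregulated in females, and 6 were upregulated and 3 downregulated in males. Esrra, which encodes ERRA, measured 34.5 and 38 CPM in the female sham libraries and 28, 28.2 and 28.7 CPM in the female axotomy libraries, and 38.7 and 42.7 CPM in the male sham libraries and 29.8, 27.6 and 27 CPM in the male axotomy libraries. It was downregulated in both sexes (log2FC -0.36, SE 0.08, padj = 0.017 in females and log2FC -0.53, SE 0.08, padj = 0.00138 in males) with no overlap between groups. Ppargc1a, the coactivator PGC-1 alpha that drives mitochondrial biogenesis, was downregulated as well (log2FC -0.56, padj = 0.0204 in females and -0.75, padj = 0.00247 in males), and its relative Ppargc1b fell in males (log2FC -1.13). Myc, which can induce mitochondrial genes, was upregulated in both sexes (log2FC 0.83 and 0.66). In males Gabpa (log2FC 0.46), Gabpb1 (0.30), Tfam (0.39), Hif1a (0.30) and Sp1 (0.23) were upregulated, and in females none of these 5 was called (log2FC 0.10, 0.21, 0.21, 0.14 and 0.01). Nrf1 (log2FC 0.19 and 0.24) and Yy1 (-0.04 in females and close to 0 in males) were called in neither sex. Pprc1, Tfb1m, Tfb2m and Polrmt were not called either, with log2FC from -0.16 to 0.36 in females and from -0.25 to 0.18 in males.

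Other genes of the pathway were read the same way. The 13 mitochondrially encoded mRNAs had 2 upregulated in females (15.4%, beside 10.5% of all genes) and 11 in males (84.6%, beside 22.6%). Their medians were 0.222 and 0.508. Their summed level was 30290 to 32280 CPM in sham, 33840 to 38920 CPM in female axotomy and 36090 to 48690 CPM in male axotomy. Of 46 tested assembly factors, which build the complexes, 4 were upregulated and 3 downregulated in females, and 7 were upregulated and 7 downregulated in males, with medians of 0.049 and 0.046. Atpaf1, which assembles the head of complex V, fell most in both sexes (log2FC -0.43, SE 0.09, padj = 0.0171 in females and log2FC -0.58, SE 0.09, padj = 0.00198 in males). Coa3, a complex IV factor, rose most in females (log2FC 0.37, padj = 0.0236), and Cox20, which handles a mitochondrially encoded subunit of complex IV, rose most in males (log2FC 0.62, padj = 0.0071). Of the 5 subunits and carriers outside the name rule, Cycs (cytochrome c, log2FC 0.35) and Ndufab1 (the mitochondrial acyl carrier protein, log2FC 0.38) rose in males, and Cyc1, Cox4i1 and Cox4i2 had log2FC -0.05, 0.11 and -0.05 in males without a call. In females 0 of the 5 were called by edgeR and 0 by DESeq2, and 1 had an unadjusted p under 0.05.

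Summed over its genes, each complex gave a library-level view. Complex I summed to 2856 and 2819 CPM in female sham, 3223, 3166 and 2929 CPM in female axotomy, 2786 and 2916 CPM in male sham and 3291, 3098 and 3650 CPM in male axotomy, so the groups did not overlap in either sex. The mean was higher after axotomy by 9.47% in females and 17.4% in males. The difference in mean was 7.93% and 12.3% for complex III, 18.2% and 26.9% for complex IV, and 5.46% and 8.29% for complex V, in females and males. Complex II differed by -1.62% in females and 3.76% in males. In summed TPM, which are scaled within each library to a fixed total, the differences were 4.89% and 7.44% for complex I, 4.25% and 4.92% for complex III, 10.2% and 11.1% for complex IV, and 4.88% and 6.34% for complex V. Complex II differed by -5.28% and -5.26% in TPM, so its male direction depended on the scale. No test was run on these sums.

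**Figure D4:**
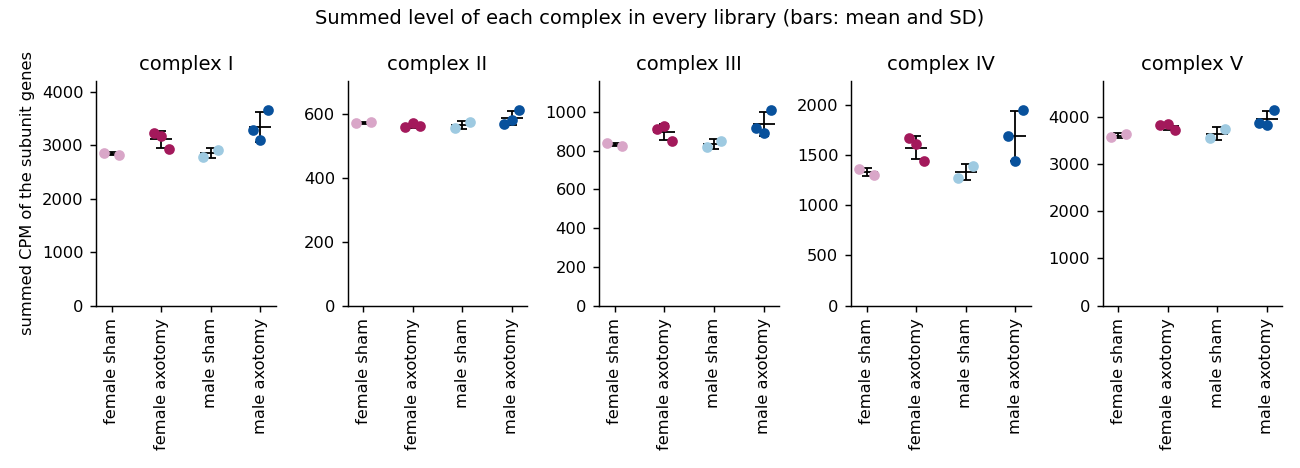
Points give the summed CPM (vertical axis, from 0) of the members of each complex in every library, by group on the horizontal axis, with bars for the mean and SD of 2 sham or 3 axotomy libraries. Complex IV has the widest gap in percent, from 1302 and 1362 CPM in female sham to 1445 to 1668 CPM in female axotomy, and complex II is nearly level.

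The members that rose were mostly short transcripts, and the trend with length ran through all genes. Among members with a mean effective length under 500 bases, 7 of 43 were upregulated in females and 27 of 43 in males, with medians of 0.239 and 0.354. All 1345 genes of that class had 12.2% and 25.7% upregulated, with medians of 0.167 and 0.261. From 500 to 1000 bases, 1 of 24 members rose in females and 11 of 24 in males, with medians of 0.121 and 0.159. All 2531 genes of the class had 14.3% and 30.8% upregulated, with medians of 0.104 and 0.195, so the female share of members (4.17%) was below that of all genes. From 1000 to 2000 bases, 1 of 11 rose in females and 5 of 11 in males, and 2 fell in males, with medians of -0.005 and 0.133. All 5954 genes of that class had 12.3% and 26.6% upregulated, with medians of 0.048 and 0.106. The 3 members over 2000 bases were Ndufs1, Sdha and Atp5a1, and 0 of them were called by edgeR in either sex (DESeq2 called Sdha in females), with medians of -0.091 and -0.111 beside -0.062 and -0.059 for all 11006 genes of that class. Spearman's rho of log2FC against effective length was -0.618 in females and -0.43 in males over the 81 members, and -0.209 and -0.242 over all 20836 genes. It was -0.74 and -0.505 within complex V (17 genes), -0.567 and -0.337 within complex I (38 genes) and -0.116 and 0.095 within complex IV (14 genes). The points share libraries and fits, so these values are descriptions. Estimated fragment length moved with library as given above. With it as a covariate the member medians were 0.099 in females and 0.2 in males.

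**Figure D5:**
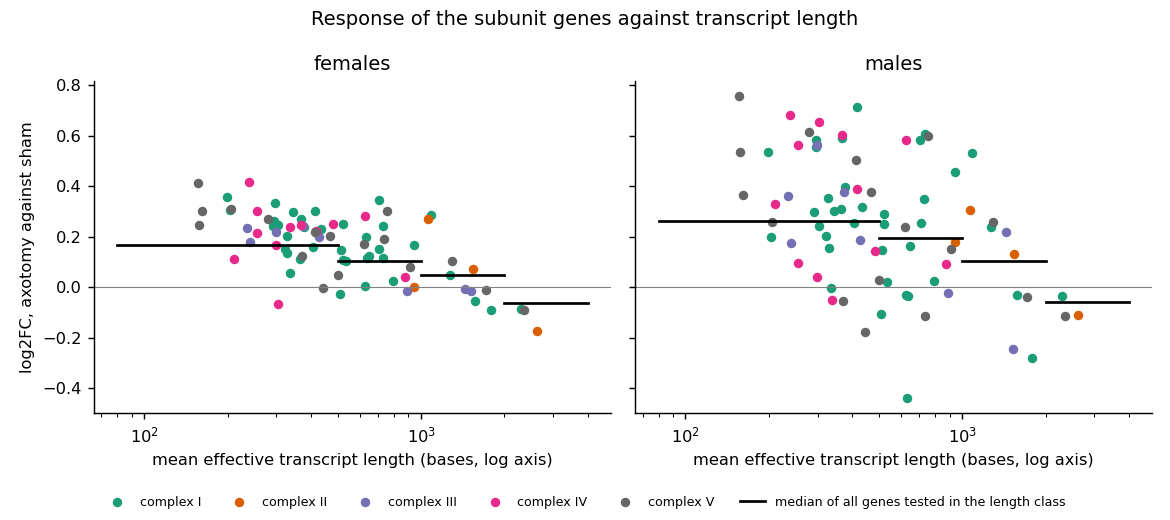
Each point is a subunit gene (Cox6a2, Cox8b and the gene not reported left out) with its mean effective transcript length in bases on a log axis and its log2FC on the vertical axis, females left and males right, coloured by complex. Black lines mark the median of all genes tested in each length class, falling from 0.167 to -0.062 in females and from 0.261 to -0.059 in males, and the line of the longest class is cut off at an arbitrary length.

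The sexes were compared directly in sham, after axotomy and in the size of the response. In sham, 0 of 81 members differed (0.0432% of all genes did), with 0 at an unadjusted p under 0.05 and 0 by DESeq2. After axotomy, 0 of 81 differed (1.63% of all genes), with 20 at an unadjusted p under 0.05 and 3 by DESeq2, and the lowest padj was 0.17. In the response to axotomy, 0 of 81 differed (0.072% of all genes), with 7 at an unadjusted p under 0.05 and 0 by DESeq2, and the lowest padj was 0.349. The log2FC was larger in males for 52 of the 81. The 3 genes that DESeq2 called after axotomy were Atp5l, higher in males (log2FC 0.28, SE 0.09 by edgeR), and Cox5a and Atp5d, lower in males (log2FC -0.22 and -0.20). Atp5d measured 162 and 165 CPM in the female sham libraries and 189, 195 and 176 CPM in the female axotomy libraries, and 173 and 179 CPM in the male sham libraries and 176, 151 and 161 CPM in the male axotomy libraries. It was higher than sham in all 3 female axotomy libraries, and the male groups overlapped (difference of the responses -0.30, SE 0.11, unadjusted p = 0.0198 by edgeR's quasi-likelihood test). The comparisons between the sexes depended on the model. With fragment length as a covariate, 22 members differed after axotomy (21 higher in males, Cox5a lower) and 4 in the response (Atp5l, Cox7a2, Ndufb1 and Uqcrb, all larger in males). Without male axotomy replicate 2, the most deeply sequenced library, 27 differed after axotomy (25 higher and 2 lower in males). In the response 5 differed, 4 with a higher and 1 (Ndufa10) with a lower log2FC in males. The shares of all genes called in these alternative fits are not given here. The summed macrophage markers reached 92.1 to 124 CPM in female axotomy and 118 to 218 CPM in male axotomy, and the summed fibroblast markers 2135 to 2681 and 2697 to 5696 CPM. In sham the macrophage sums were 77.4 to 91.5 CPM in females and 60.1 to 65.5 CPM in males. The fibroblast sums in sham were 2105 to 2419 and 1552 to 1677 CPM, so male sham was lower in both lists. The part of these markers in the member differences was not tested.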

How the data were processed

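Poly-A RNA of pooled DRG was sequenced as stranded paired-end libraries. The authors trimmed reads with Trimmomatic 0.39, quantified transcripts with Salmon 1.3.0 (sequence and GC bias corrected) on Gencode M27, and tested genes with DESeq2. They also shrank fold changes with apeglm and used removeBatchEffect and RUVseq against batch effects. The main fit here held no batch term. The deposited files hold, per transcript, estimated counts (not whole numbers), TPM and effective length. Here the estimated counts were summed per gene and rounded, and the deposited TPM were summed per gene. With edgeR 4.0.16 (R 4.3.3), genes passing filterByExpr (minimum count 10) were fitted by the robust quasi-likelihood method over all 10 libraries, with 4 group means, TMM factors (0.979 to 1.02) and effective lengths as offset. Benjamini-Hochberg padj over all genes below 0.1 was the threshold. The fit was tested on simulated data. The sources do not say whether pools were handled separately, so p-values measure the spread between these libraries. Named genes were tissue isoforms, the members of highest and lowest TPM per complex, the 5 called members of largest and smallest log2FC per sex, members called between the sexes, catalytic or defining subunits, subunits outside the rule, called assembly factors of largest change, regulators and muscle or adipocyte markers; other members named were chosen after their values were seen. Members and lists were chosen with earlier results of these data known. Alternatives were DESeq2 1.42.0, other size factors, no filter, no length offset, protein-coding transcripts, a replicate block, the compared groups alone, each library left out and, chosen after seeing the data, fragment length as a covariate. The values of 1 complex I gene are not reported here.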

Additional observations from a re-analysis of the deposited data

Results flagged for a closer look

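Ndufb4c, a processed pseudogene of the complex I subunit gene Ndufb4 that the name rule left out, carried counts in every library, 2252 to 2771 in sham and 2639 to 4201 after axotomy. Its axotomy libraries lay above sham in both sexes, with log2FC 0.32 in females (padj = 0.077) and 0.42 in males (padj = 0.0139) by edgeR's quasi-likelihood test. It drew notice as a signal in a gene outside the members. Ndufb4 itself had fewer counts in every library, 1355 to 1788 in sham and 1485 to 2326 after axotomy. The mean level was 433 TPM for Ndufb4c and 59.6 TPM for Ndufb4. How reads were shared between Ndufb4c and Ndufb4 was not tested, so the level and call of either gene are uncertain.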

How the results depend on the processing

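Among 1666 alternative values of 88 named log2FC, 158 lost and 60 gained the call. The sign changed in 49 values of 17 log2FC, none of them called. Upregulated members in females, 9 at first, numbered 15 with protein-coding transcripts only, 35 with the compared groups only, 20 with DESeq2, 1 with fragment length as a covariate and 0 to 30 with single libraries left out. Downregulated members in females, 0 at first, numbered 1 with the compared groups only, 1 with DESeq2 and 0 to 1 with libraries left out. In males, upregulated members, 43 at first, numbered 33 with the compared groups only and 16 to 51 with libraries left out. Downregulated members in males, 2 at first, ranged from 0 to 6 with libraries left out. They numbered 1 by library totals, 0 with the compared groups only and 1 with fragment length. DESeq2, its size factors and protein-coding transcripts only gave 3 each. Members that differed between the sexes after axotomy numbered 1 without the filter, 3 with DESeq2, 22 with fragment length and 0 to 27 with libraries left out, and in the response 4 with fragment length and 0 to 5 with libraries left out. The cause was not tested, and these counts stand without the share of all genes called under the same alternative. Replicate numbers did not pair the libraries (13 same-numbered pairs, r from -0.12 to 0.27, 4 over 0.1); a replicate block gave 2 upregulated members in females, 36 upregulated and 1 downregulated in males. Complex II changed by -5.28% in females and -5.26% in males in summed TPM. By estimated counts, mean isoform shares were 1.02% for Cox7a1, 0.819% for Cox6b2, 0.253% for Ndufa4l2, 43.4% for Atp5g1 and 52.9% for Atp5g3. Precision was limited by 2 sham libraries per sex.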
